A study of Mus musculus with 12 samples.

Results

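The adult globin genes of the mouse encode the protein chains of hemoglobin, and 4 of the 21958 genes counted in bone marrow were members of this family: Hba-a1 and Hba-a2, which encode the alpha chain, and Hbb-bs and Hbb-bt, which encode the beta chain. They were chosen by gene symbol, when earlier results of these data were already known. RNA was extracted from bone marrow cells of wild-type (WT) mice, selected for poly(A) tails and sequenced in 12 libraries, 4 in each of 3 groups. Controls were left untreated. Myelosuppression, a loss of blood cell production in the marrow, was brought about with CTX in the model group. The cornus group was given self-assembled nanoparticles from Cornus officinalis, a dogwood whose fruit is used in Chinese medicine, and the labels do not say whether these mice were also given CTX. Dose, time, strain and age are not in the labels. The design text speaks of biological replicates, but no label ties each sample to an animal of its own; p-values therefore measure only the spread between these samples.

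Hemoglobin is a tetramer of alpha and beta chains, each of which holds a heme group with its iron. Developing red cells in the marrow (erythroblasts) transcribe the globin genes at rising levels as they mature, and the mRNA stays in the young red cell after the nucleus is lost. Red cells need the chains in balance, because a chain left without its partner precipitates and damages the cell, as in the thalassemias. The alpha genes lie in a cluster on chromosome 11 and the beta genes in a cluster on chromosome 7, so the balance is kept between separate loci. In each cluster the adult gene is present as a pair of near-identical copies.

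Libraries held between 13902122 and 19139771 counted reads. All 7 erythroid marker genes (Slc4a1, Epb42, Alas2, Klf1, Hemgn, Rhag and Car2) were counted in the marrow, with a summed level of 4074 to 9901 counts per 1000000 (CPM, scaled to the TMM library size) in the controls, 227 to 4231 CPM in the model group and 76.3 to 4167 CPM in the cornus group. Controls 1 to 3 had nearly the same counts, with a chi-square per degree of freedom of 1.72 to 1.92 against 12.9 to 147 in the other 15 pairs of libraries within a group, so each comparison with the controls was also made with these 3 libraries summed to 1 sample. Control 4 stood apart from them in other lineages too: its B lineage markers summed to 2035 CPM, the highest of the 4 controls, and its monocyte markers to 577 CPM, the lowest.

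As deposited, Hba-a1 (ENSMUSG00000069919) spans 32233511 to 32234465 and Hba-a2 (ENSMUSG00000069917) 32246489 to 32247298 on the plus strand of chromosome 11. Hbb-bs (ENSMUSG00000052305) spans 103475741 to 103477303 and Hbb-bt (ENSMUSG00000073940) 103461731 to 103463203 on the minus strand of chromosome 7. The genome build of these coordinates is not given in the sources used here. The 120 bases before the RefSeq start of each gene are shown so that the alpha copies, which are nearly alike there, can be set beside the beta copies, which are not. They are from RefSeq (GRCm38.p6), which matched all 4 members, and run 5′ to 3′ on the strand of the gene. Capitals mark promoter boxes that were searched by their letters on both strands. The box bound by Klf1 and related factors was searched as CCACCC or, with the other first letters found in beta globin promoters, as CACACCC, and is called the CACCC box. Another common promoter box was searched as CCAAT, by which it is also named. The box nearest the start, the TATA box, was searched as either ATAAAA or, in its other spelling, ATATAA.

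Hba-a1 (chr11:32283552-32283671, plus strand): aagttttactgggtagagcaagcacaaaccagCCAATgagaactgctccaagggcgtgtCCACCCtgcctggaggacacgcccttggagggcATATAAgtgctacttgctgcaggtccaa
Hba-a2 (chr11:32296372-32296491, plus strand): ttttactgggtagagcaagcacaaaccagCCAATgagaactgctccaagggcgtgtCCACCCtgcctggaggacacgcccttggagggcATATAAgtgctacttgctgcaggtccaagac
Hbb-bs (chr7:103827929-103828048, minus strand): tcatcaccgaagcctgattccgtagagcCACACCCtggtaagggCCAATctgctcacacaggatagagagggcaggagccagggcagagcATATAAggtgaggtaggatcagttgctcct
Hbb-bt (chr7:103813924-103814043, minus strand): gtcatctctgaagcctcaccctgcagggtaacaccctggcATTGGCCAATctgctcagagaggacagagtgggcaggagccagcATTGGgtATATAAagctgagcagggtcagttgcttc

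The alpha copies share these letters: shifted by 3 bases, all 247 overlapping bases before their starts were identical. Each alpha copy held 1 CACCC box, 1 CCAAT box and 1 TATA box, whose first bases lay 61, 88 and 28 bases before the start in Hba-a1. The beta copies were less alike, with 182 of 258 aligned positions identical (70.5%). Hbb-bs held a CACCC box 92 bases, a CCAAT box 76 bases and a TATA box 30 bases before its start. Hbb-bt held neither of the longer spellings searched, CCACCC and CACACCC, although the shorter letters CACCC do occur in its window, in lower case. It held 3 matches to CCAAT, of which 2 lie on opposite strands and adjoin. No GATA box (AGATAA or TGATAA or AGATAG or TGATAG) was in any of the 4 windows. Among 27025 RefSeq promoter windows of this length, 19.1% held a CACCC box in either spelling, 22.1% CCAAT, 12.1% a TATA box and 13% a GATA box. These matches describe letters and not sites that were shown to be bound. All starts here are those of RefSeq. The Hba-a1 transcript used below (GENCODE M21) has 196 bases before its coding part, against 35 in Hba-a2. It may therefore start upstream of the RefSeq start, and the letters shown for Hba-a1 may lie within it.

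Within their coding parts the copies cannot be told apart by most reads. The coding sequences of Hba-a1 and Hba-a2 have 426 bases and differ by 1 substitution, C381T, and those of Hbb-bs and Hbb-bt have 441 bases and differ by C417T, with positions counted from 1 at the first coding base, the first-named copy first. Of all 100-base stretches of the annotated transcript (GENCODE M21), 74.5% of those of Hba-a2 also occur in Hba-a1, and 56.5% of those of Hba-a1 in Hba-a2. For Hbb-bs and Hbb-bt the shares are 62.6% and 54.8%. How the authors counted reads that match several places is not given in the sources used here. The value of each single copy is therefore uncertain, and reads that match both copies would be missing from both if they were dropped.

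Hba-a1 was counted 209985, 200807, 183374 and 746636 times in controls 1 to 4. In the model libraries it was counted 1761, 60992, 35084 and 30249 times, and in the cornus libraries 1485, 115113, 34731 and 126581 times. Every control lay above every other library, and the first library of the model group and of the cornus group lay far below all others.

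Hbb-bs, the beta copy with more reads, was counted 173498, 186506, 166584 and 576031 times in the controls. Its counts were 1721, 68602, 30781 and 24337 in the model libraries and 1451, 91885, 32041 and 125335 in the cornus libraries. In each group the library with most reads and the library with fewest were the same as for Hba-a1.

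Hbb-bt, its neighbouring copy, had 23944, 33296, 28507 and 123030 reads in the controls. Model libraries held 248, 4054, 2032 and 6232 reads of it and cornus libraries 101, 11468, 4223 and 16130. Here the model library with most reads was the fourth and not the second.

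Hba-a2 had very few reads: 45, 70, 21 and 117 in the controls, 0, 1, 2 and 0 in the model libraries, and 1, 21, 5 and 14 in the cornus libraries. These are the reads the counting gave to this copy, most of whose sequence it shares with Hba-a1, and they cannot be read as the transcript level of the Hba-a2 gene.

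**Figure D1:**
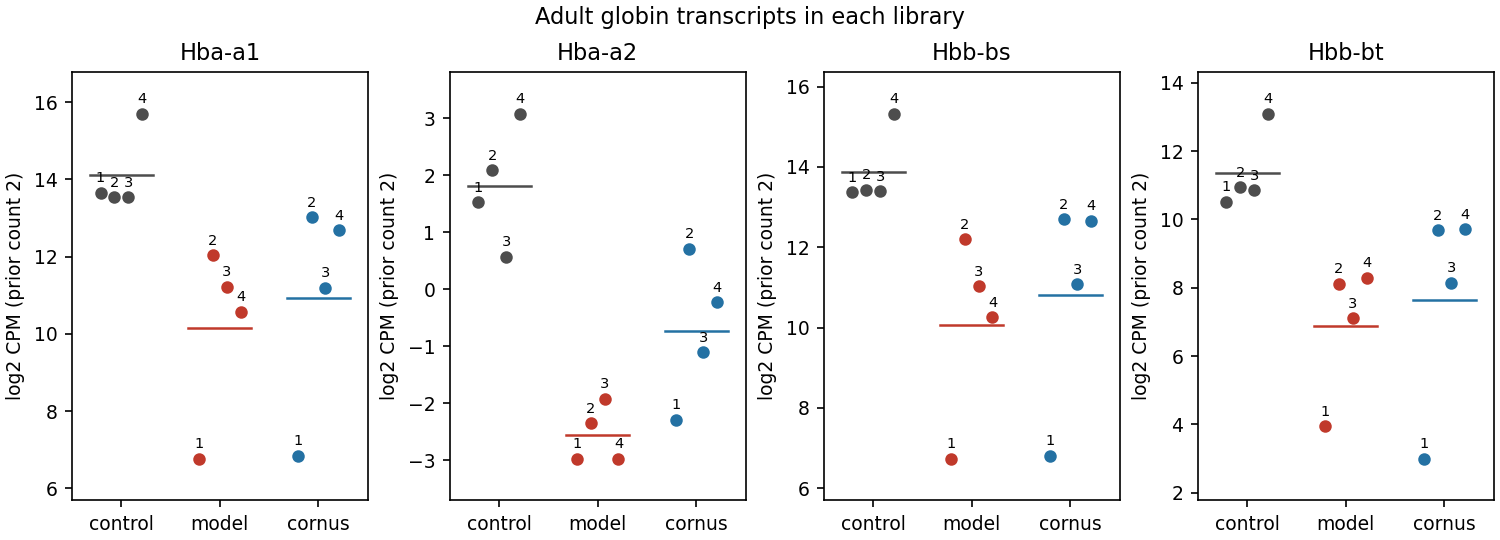
Level of each adult globin gene in each library as log2 CPM with a prior count of 2 (vertical axes, each with its own range), by group; numbers are the replicate numbers and bars the group means. Control 4 is highest for all 4 genes, and the first model and cornus libraries lie near the bottom of each panel.

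Together the 4 genes took 2.49%, 2.47%, 2.45% and 9.80% of all counted reads in controls 1 to 4. The share was 0.0249%, 0.942%, 0.463% and 0.332% in the model libraries and 0.0218%, 1.57%, 0.448% and 1.40% in the cornus libraries. The group means were 4.30% ± 3.67 (SD, n = 4), 0.440% ± 0.381 and 0.860% ± 0.746. Exact 95% intervals of a library's share cover counting error only and are narrow at this depth, for example 2.479% to 2.494% in control 1. Between the highest and the lowest library the CPM of Hba-a1 differed 490-fold, that of Hbb-bs 387-fold and that of Hbb-bt 1120-fold. Control 4 exceeded the mean of controls 1 to 3 by a factor of 4.36 in Hba-a1, 3.80 in Hbb-bs and 4.98 in Hbb-bt.

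Per length, the values kept nearly the same order in each library. In FPKM, which the authors deposited beside the counts, the control means were 26819 for Hba-a1, 23238 for Hbb-bs, 4838 for Hbb-bt and 6.05 for Hba-a2. Hbb-bs exceeded Hbb-bt, and Hbb-bt exceeded Hba-a2, in 12 of 12 libraries, an order of the reads given to each copy that is uncertain within each pair of copies. Hba-a1 exceeded Hbb-bs in only 8 of 12, which were every control and some of the model and cornus libraries. The order of these neighbours was therefore not the same in all libraries.

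The alpha to beta ratio was taken within each library as reads per kb of deposited gene length, (Hba-a1 + Hba-a2) over (Hbb-bs + Hbb-bt). It was 0.995, 0.853, 0.877 and 0.994 in controls 1 to 4. Model libraries gave 0.836, 0.790, 1.01 and 0.919, and cornus libraries 0.90, 1.04, 0.896 and 0.838. All 12 values lay between 0.790 and 1.04, although the level of Hba-a1 itself differed 490-fold. On the log2 scale the SD over the 12 libraries was 0.13 for the ratio and 2.68 for the level of Hba-a1. The first model library, with 1761 alpha reads, had a ratio of 0.836, and control 4, with 746753 alpha reads, one of 0.994. The ratio describes reads given to these genes, and protein chains were not measured. Its value also depends on how reads that match several places were counted, which is not known.

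No difference of the ratio between groups passed the test. The mean log2 ratio was -0.11 ± 0.12 (SD, n = 4) in control, -0.18 ± 0.15 in model and -0.13 ± 0.13 in cornus. Model minus control was -0.07, with an adjusted p of 0.857 (exact two-sided permutation test, adjusted over 9 ratio tests). The corresponding values were 0.05 with an adjusted p of 0.857 for cornus minus model and -0.02 with 0.943 for cornus minus control. With 4 libraries against 4 the smallest p such a test can give is 0.0286 before adjustment, and the group ranges overlapped in each comparison.

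The split of reads between the beta copies was less steady than the alpha to beta ratio of reads. Hbb-bt made up 12.1%, 15.1%, 14.6% and 17.6% of the beta chain reads in the controls. Its share was 12.6%, 5.58%, 6.19% and 20.4% in the model libraries and 6.51%, 11.1%, 11.6% and 11.4% in the cornus libraries. Exact 95% intervals, which cover counting error only, were 5.41% to 5.75% in the second and 19.9% to 20.8% in the fourth model library, so the spread within the model group was far beyond counting error. All 4 cornus shares lay below all 4 control shares, with means of 10.2% ± 2.45 and 14.9% ± 2.25 (SD, n = 4). The raw p of that difference was 0.0286, the smallest possible, and 0.0857 after adjustment over 9 tests (exact two-sided permutation test), so it did not pass. Model shares overlapped both other groups.

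Hba-a2 made up 0.0214%, 0.0348%, 0.0115% and 0.0157% of the alpha chain reads in the controls. In the model libraries the share was 0, 0.00164%, 0.00570% and 0, and in the cornus libraries 0.0673%, 0.0182%, 0.0144% and 0.0111%. The model shares lay below all shares of both other groups, with a raw p of 0.0286 and an adjusted p of 0.0857 in each case (exact two-sided permutation test). In the comparison with the controls, controls 1 to 3 again counted as separate libraries although their counts were nearly the same. The depth limits this comparison. The first model library had only 1761 alpha reads, so a count of 0 there allows a share of up to 0.170% (3 reads; the exact 95% upper end is 0.209%), above every control. For the fourth model library the limit is 0.00992% and the exact upper end 0.0122%, which lies above control 3 and cornus library 4. The first cornus share rests on 1 read, with an exact 95% interval of 0.0017% to 0.374%.

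**Figure D2:**
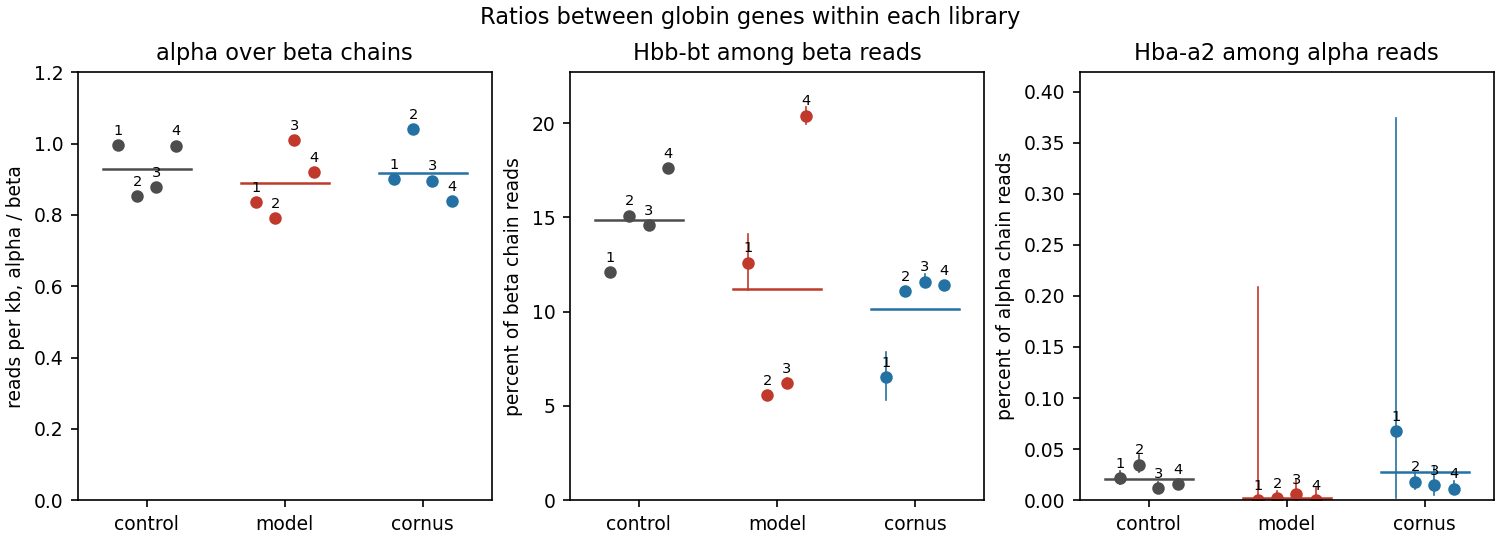
Ratios within each library by group: alpha over beta chain reads per kb (left), Hbb-bt as a percentage of beta chain reads (middle) and Hba-a2 as a percentage of alpha chain reads (right), with exact 95% intervals as vertical lines in the middle and right panels, replicate numbers, and group means as bars. All 12 alpha to beta values lie between 0.790 and 1.04, while the Hbb-bt share runs from 5.58% to 20.4%.

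A further view of the beta copies came from controls 1 to 3, whose counts were nearly the same. Among the 2227 genes with a mean of at least 100 CPM in these 3 libraries, the median ratio of the highest to the lowest CPM was 1.039. Hbb-bt had a ratio of 1.344, the highest of all, and the next gene, Vbp1, had 1.153. Hbb-bs was ordinary in this respect, with a ratio of 1.039 and rank 1101, and Hba-a1 had 1.082 and rank 198. The Hbb-bt share of beta chain reads in controls 1 and 2 had exact 95% intervals of 11.98% to 12.27% and 15.0% to 15.3%. This gene was singled out after its values were seen, and its ratio is a description with no test.

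In the CTX model the adult globin transcripts were lower than in control marrow. All 4 genes were called lower in the edgeR quasi-likelihood test, and 3 of them (Hba-a1, Hba-a2 and Hbb-bt) also with controls 1 to 3 summed; 20.9% of the 12549 genes tested were called lower in this comparison. For each of the 4 the groups did not overlap, every model library being below every control, as in 20.8% of genes tested. In bulk RNA, fewer cells of a type and less RNA per cell cannot be told apart.

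Mean Hba-a1 was 2050 ± 1706 CPM in the model and 22466 ± 20518 in the control group (SD, n = 4). It fell by 3.45 ± 1.17 (SE) on the log2 scale, with an edgeR adjusted p of 0.0313, or 0.0455 with the controls summed. Each SE was derived from the test itself, as the size of the change over the square root of its F statistic. Hbb-bt fell by 4.24 ± 1.21, from 3514 ± 3512 to 186 ± 137 CPM, with adjusted p of 0.0144 and 0.0241. Among the members with many reads, these were called in both fits.

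Hbb-bs, at 2033 ± 1961 CPM against 18383 ± 15126 CPM, differed by -3.18 ± 1.15 on the log2 scale. Its edgeR adjusted p was 0.0405; with the controls summed the change was -3.68 ± 1.35 and the adjusted p 0.0587, which missed the threshold although the change was larger. Hba-a2 was called in both fits, with adjusted p of 0.000483 and 0.00196, on 3 reads in the model libraries and 253 in the controls. Scaled to library size the control rate was 82.5 times that of the model, with an exact 95% interval of 27.9 to 403 that covers counting error only. Its fitted log2 change of -6.25 depends on the prior count.

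Single libraries mattered for the abundant members. Without control 4 the log2 change of Hba-a1 was -2.57 with an edgeR adjusted p of 0.0920, and that of Hbb-bs -2.41 with 0.113. Hba-a1 also missed the threshold without model library 1, 3 or 4, with adjusted p of 0.0505, 0.0630 and 0.0710, and Hbb-bs without control 2 or model library 1, 3 or 4, with 0.0504, 0.0642, 0.0810 and 0.0896. Hbb-bt and Hba-a2 were called whichever library was left out.

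None of the 4 genes was called between cornus and model, where 0.151% of genes tested were called in either direction. The log2 change (cornus minus model) was 1.08 ± 1.07 (SE) for Hba-a1, 0.92 ± 1.06 for Hbb-bs and 1.39 ± 1.08 for Hbb-bt. The edgeR adjusted p was 0.601, 0.658 and 0.490, and the standard errors were about as large as the changes of Hba-a1 and Hbb-bs. Cornus libraries 2 and 4 had higher levels of Hba-a1, Hbb-bs and Hbb-bt in CPM than any model library, while cornus library 3 lay within the model range and cornus library 1 was close to the lowest model library, at 115 against 109 CPM of Hba-a1, 112 against 106 CPM of Hbb-bs and 7.82 against 15.3 CPM of Hbb-bt. For Hba-a2, 41 reads in the cornus group stood against 3 in the model group, a rate ratio of 13.5 with an exact 95% counting interval of 4.32 to 68.3. The edgeR adjusted p of that difference was 0.116, and the groups overlapped.

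Against the control group, Hba-a2 was lower in cornus, with 41 reads against 253, a log2 change of -2.62 ± 0.69 and edgeR adjusted p of 0.00943, or 0.0130 with the controls summed. In this comparison 23.6% of genes tested were called lower. The other 3 members did not pass: the log2 change was -2.38 ± 1.12 for Hba-a1, -2.26 ± 1.10 for Hbb-bs and -2.85 ± 1.14 for Hbb-bt, with adjusted p of 0.0972, 0.109 and 0.0562. For these 3 every cornus library nevertheless lay below every control, as was so for 24.4% of genes tested, whereas the Hba-a2 values overlapped. The comparisons share libraries and are given side by side only.

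**Figure D3:**
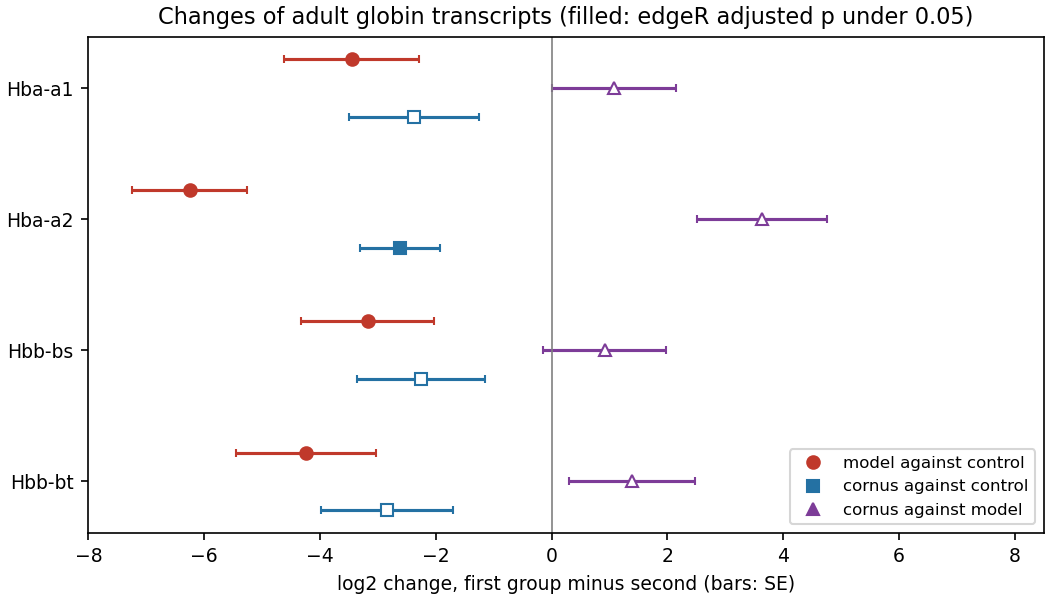
Log2 change with its standard error for the 4 globin genes in 3 comparisons, the first-named group minus the second; filled symbols have an edgeR adjusted p under 0.05. Changes against control are all negative, from -6.25 to -2.26, and changes of cornus against model are positive with no call.

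The globin level was then set beside that of other erythroid genes in the same library. The 4 globin genes summed to 6.07, 6.05, 6.02 and 10.4 times the summed CPM of the 7 erythroid markers in controls 1 to 4. This quotient was 1.02, 2.17, 3.09 and 1.65 in the model libraries and 3.08, 3.85, 2.85 and 3.33 in the cornus libraries. All controls lay above all other libraries, but controls 1 to 3 had nearly the same counts and add little more than 1 sample would. The quotient is a description chosen after earlier values were seen, so no test was made.

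The contrast was plain in 3 libraries. The second model library had an erythroid marker sum of 4231 CPM, and cornus libraries 2 and 4 had 4078 and 4167 CPM, against 4074 to 4116 CPM in controls 1 to 3. Their globin sums were 9174, 15718 and 13886 CPM, against 24531 to 24951 CPM in those controls. Slc4a1, the anion exchanger band 3 of the red cell membrane, was not low in them, with 2199, 2005 and 2096 CPM in the 3 libraries and 1717 to 1749 CPM in controls 1 to 3. Likewise Tfrc, the transferrin receptor that brings in iron, had 745, 759 and 707 CPM against 598 to 602 CPM. Bpgm, the enzyme that makes the red cell's regulator of oxygen affinity, was low like the globins, at 85.1, 251 and 182 CPM against 318 to 331 CPM. Alas2, the first enzyme of heme synthesis in red cells, had 484, 828 and 772 CPM against 892 to 918 CPM. Mkrn1, a ubiquitin ligase, had 242, 352 and 291 CPM against 417 to 424 CPM. Klf1, the factor of the CACCC box, had 69.0, 34.7 and 38.1 CPM against 60.1 to 65.6 CPM, so it was low in the cornus libraries only. Erythroid genes thus differed among themselves in these libraries. The genes of this paragraph were picked after their values were seen. Because controls 1 to 3 had nearly the same counts, their narrow ranges do not show the spread between controls.

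**Figure D4:**
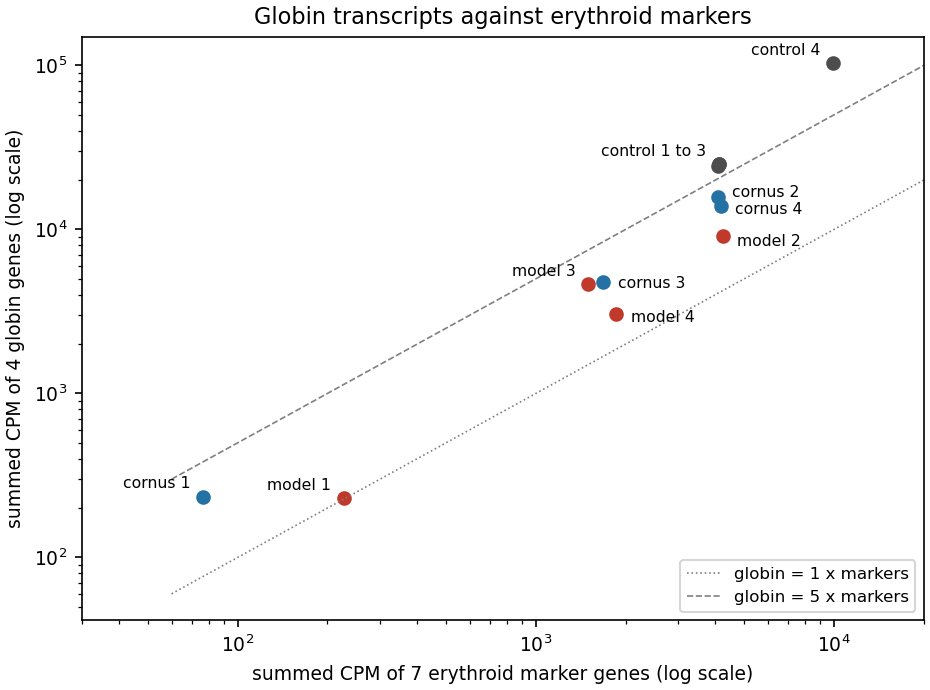
Summed CPM of the 4 globin genes (vertical, log scale) against summed CPM of 7 erythroid marker genes (horizontal, log scale), 1 point a library; lines mark 1 and 5 times the marker sum. Controls lie at 6.02 to 10.4 times the markers and the other 8 libraries at 1.02 to 3.85 times.

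Other globin genes were rare in the marrow. Of 12 listed, 9 were in the table and 2 had enough reads to be tested, the duplicate theta globins Hbq1a and Hbq1b of the alpha cluster, which may share reads. Hbq1a had 45, 41, 33 and 107 reads in the controls and 0, 9, 2 and 1 in the model libraries, and it fell by 4.25 ± 0.96 (SE, log2) with an edgeR adjusted p of 0.0042, or 0.0119 with the controls summed. Hbq1b, with 1156 reads over the controls and 321 over the model libraries, had a change of -1.94 ± 0.95 and did not pass (adjusted p 0.115). The embryonic genes Hba-x, Hbb-y and Hbb-bh1 had 7, 11 and 21 reads over all 4 controls and were not tested.

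Regulators of globin transcription came next. Of 13 tested in model against control, 2 were called lower and 1 higher, in both fits, beside 20.9% and 23.2% of all genes, with a median log2 change of -0.51 beside -0.0028 over all genes tested. Ldb1, the looping partner that joins the distant enhancers to the globin genes, fell by 0.57 ± 0.15 (edgeR adjusted p 0.00814), and Nfe2, an enhancer-binding factor of erythroid and platelet precursors, fell by 0.51 ± 0.12 (0.0064). Runx1, a factor of blood stem cells and other lineages, rose by 0.49 ± 0.10 (0.00196). Gata1, the principal erythroid factor, had a change of -1.25 ± 0.54 that did not pass (0.0796). In cornus against control 1 was called lower (Ldb1) and 1 higher (Runx1), beside 23.6% and 24.0% of all genes. In cornus against model none of the 13 was called.

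Genes around the alpha cluster were read from the same gene by gene tests, and a change shared with the globin genes was not tested. Of 6, Rhbdf1 was called lower in model against control (-0.96 ± 0.35, edgeR adjusted p 0.0412) but missed with the controls summed (0.0886). In this comparison 20.9% of all genes were called lower. Snrnp25 missed (-0.58 ± 0.25, 0.0770) but was called lower with the controls summed (0.0292), so none was called in both fits. Nprl3, whose introns hold the main alpha globin enhancers, had a change of -0.50 ± 0.23 (0.0927) and Polr3k -0.19 ± 0.11 (0.168). The median was -0.47. In cornus against control Snrnp25 and Polr3k were called lower, with changes of -0.90 ± 0.25 (0.0122) and -0.42 ± 0.11 (0.00705). Of all genes 23.6% were called lower there, so calls in a list this short are no result about the locus. None of the 6 was called in cornus against model.

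Protein quality control, which deals with unpaired or damaged chains, had 2 of 8 tested genes lower in the model and none higher, beside 20.9% of all genes called lower, with a median log2 change of -0.26. Prdx2, an abundant red cell peroxidase, fell by 1.90 ± 0.65 (edgeR adjusted p 0.0324), and Ulk1, a kinase that starts autophagy, fell by 0.58 ± 0.14 (0.00686). Ube2o, a ubiquitin enzyme that clears unassembled alpha chains, had -1.60 ± 0.66 (0.0677), and the mitochondrial chaperone Hspa9 0.33 ± 0.13 (0.0600). Prdx2 was also lower in cornus against control, with a change of -1.71 ± 0.64 (0.0450). It was the only call of the list there, beside 23.6% of all genes called lower. In cornus against model no gene of the list was called.

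Heme supply had 4 of 15 tested genes lower in the model and none higher, in both fits, beside 20.9% of all genes called lower, with a median of -1.14 and all 15 changes negative. Slc25a39, a mitochondrial glutathione carrier needed for heme synthesis, fell by 1.83 ± 0.46 (edgeR adjusted p 0.00774). The enzymes Ppox and Urod fell by 1.05 ± 0.30 (0.0146) and fell by 1.42 ± 0.43 (0.0185), and Slc25a38, the mitochondrial glycine carrier, by 1.12 ± 0.37 (0.0296). The erythroid first enzyme, Alas2, had a larger change with a larger error, -2.60 ± 1.09 (0.0708). In cornus against control 3 of 15 were called lower (23.6% of all genes), with a median of -1.18, and in cornus against model none.

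Among 26 tested markers of erythroid maturation, 5 were called lower in the model and none higher, 4 of them in both fits, with a median of -1.23; the count is no larger a share than the 20.9% of all genes called lower. Those 4 were Mkrn1, a ubiquitin ligase (-1.75 ± 0.36, edgeR adjusted p 0.00249), Car1, a carbonic anhydrase (-1.67 ± 0.37, 0.00362), Bnip3l, which removes mitochondria from young red cells (-0.86 ± 0.20, 0.00512), and Bpgm (-3.46 ± 0.83, 0.0058). Of the 7 erythroid markers used above none was called in model against control, with a median of -1.25. In cornus against control 4 of the 26 were called lower, 3 of them in both fits, beside 23.6% of all genes, and none of either list was called in cornus against model. The lists overlap, since 5 of the 7 markers are maturation genes too.

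Across the 12 libraries, the genes most like the summed globin level in log2 CPM included Cdr2 (Pearson r 0.995), Alas2 (0.993), Ppp1r15a (0.992), Tmcc2 (0.989), Ackr1 (0.987), Dapk2 (0.986), Sowaha (0.985), Acmsd (0.984) and Fech (0.983). Alas2 and Fech are the first and last enzymes of heme synthesis, and Ppp1r15a is a regulatory subunit of the phosphatase that restarts translation after stress. With the mean of each group taken away, Alas2 (0.996), Cdr2 (0.993), Prxl2a (0.993), Inhca (0.992) and Ackr1 (0.991) led, so the likeness also held within groups. The same 2 very low libraries enter every one of these values, and 222 of 11634 genes (1.91%) had an r above 0.9. Of the heme supply list 12 of 15 were above 0.9, of the maturation markers 19 of 26, of the transcription regulators 4 of 13, and of the alpha cluster neighbours 0 of 6.

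Markers of other cells moved between the same groups. In model against control 20.9% of all genes tested were called lower and 23.2% higher. In model against control, B lineage markers were called lower in 6 of 8 in both fits (summed 877 to 2035 CPM in control, 82.0 to 123 in model), eosinophil and basophil markers in 6 of 6, 4 in both fits (3371 to 4739 against 129 to 709 CPM), and late neutrophil markers in 7 of 9, 5 in both fits (48527 to 76441 against 28430 to 56709 CPM). Early neutrophil markers were called higher in 5 of 5 (2550 to 2998 against 4384 to 7609 CPM). Markers of the macrophages that surround erythroblasts were called lower in 4 of 8, with summed levels of 206 to 261 CPM in control and 154 to 235 CPM in the model. T and NK markers were called lower in 4 of 5, all 4 in both fits, and higher in 1, which was not called with the controls summed. Their sums overlapped, at 136 to 145 CPM in control and 91.0 to 139 CPM in the model. Endothelial and stromal markers were called lower in 3 of 5, 2 in both fits. Of 6 stem and progenitor markers 1 was called lower and 2 higher, with 1 lower and 1 higher in both fits. Of 5 monocyte markers 1 was called higher, and none of the 4 tested megakaryocyte and platelet markers was called. The part of these shifts in the globin values, which are shares of all reads, was not tested.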

How the data were processed

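Read counts per gene were deposited by the authors for 12 libraries of mouse bone marrow cells, beside FPKM that the authors computed from the deposited gene lengths. Per the submitters' processing notes the tools were fastp 0.22.0, HISAT2 2.1.0 and HTSeq 0.9.1; the genome build, the strand setting and the treatment of reads with several matches are not given in the sources used here. Library totals were 13902122 to 19139771 counts.

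For tests on counts, edgeR 4.0.16 (R 4.3.3) was used with TMM factors, filterByExpr and the quasi-likelihood test, group as the only term and all 12 libraries in 1 fit, with Benjamini-Hochberg adjustment over 12549 genes and a threshold of 0.05. Ratios were compared by exact two-sided permutation over 70 splits, after adding 0.5 reads a gene in the alpha to beta ratio, and 9 p-values were adjusted together. Alternatives, among them DESeq2 1.42.0 and limma 3.58.1 on log2(FPKM + pseudocount), are in the closing section. The edgeR step was checked on simulated counts, with independent libraries and the same dispersion for every gene. It was not checked for a spread within groups as wide as that of the globin genes. Values were said not to overlap when every library of 1 group lay beyond every library of the other.

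The members and gene lists were chosen with earlier results of these data known. Named genes were the members, up to 4 of each list with the smallest p in model against control, and the 10 and 5 genes most correlated with the globin sum, among genes with a mean of at least 1 CPM; others are marked or named for their level. Of the 5 genes the rule names, 1 is not reported here, nor are some genes of the erythroid lists and the ranking, which were left out of list counts and sums.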

Additional observations from a re-analysis of the deposited data

Results flagged for a closer look

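In 21 groups of 4 values (the levels of the 4 genes and their 3 ratios in each of 3 groups), 5 held a library far from the other 3, with a gap to its nearest neighbour, as a share of the whole range, above Dixon's 95% critical value. Chance flags about 1 in 20 such groups if the 4 values are independent, and these measures are not independent of each other.

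Control 4 was the distant library for Hba-a1 at 53235 CPM, for Hbb-bs at 41071 CPM and for Hbb-bt at 8772 CPM. Cornus library 1 was the distant one for the Hbb-bt share of beta chain reads, at 6.51%, and for the Hba-a2 share of alpha chain reads, at 0.0673%, a value that rests on 1 read.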

How the results depend on the processing

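Counts of genes called between model and control and between cornus and control stayed within 1.5 times of 5531 and 5972 under all 11 alternatives and all 12 leave-outs. Between cornus and model the count of 19 did not hold: it was 12 with no filter, 839 with DESeq2, 550 and 523 with limma on log2(FPKM + 1) and log2(FPKM + 0.1), and 0 with only the groups compared, with controls 1 to 3 summed and with the replicate block. Leaving out 1 library gave 0 to 1035, with 1035 without control 4 and 63 without model 2; the cause was not tested.

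Hba-a2 in cornus against model was called by DESeq2 (adjusted p 0.0179). In cornus against control DESeq2 called Hba-a1, Hbb-bs and Hbb-bt (0.0179, 0.0261 and 0.0248), limma called Hbb-bt (0.0454 and 0.0463), and leaving out model 1 gave Hbb-bt 0.0417. Deviations from the group mean correlated above 0.1 in 7 of 12 pairs of libraries with the same replicate number and at 0.1 or below in the other 5 (-0.135 to 0.45). In 11 of 24 cases the best match of a library in another group, among the 4 there, had its own number. These cases are not independent of each other. The labels give the numbers no meaning, so whether they pair the libraries is not known; with the replicate block Hba-a1, Hbb-bs and Hbb-bt were called in cornus against control (0.0194, 0.0195 and 0.00704) and no other call of a member changed. For the ratios the block gives an exact sign-flip test of 4 pairs, which cannot go below 0.125 and so could not pass; the alpha to beta difference between model and control had an adjusted p of 0.9.

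No ratio test passed, but the design left little room: 4 libraries against 4 cannot go below 0.0286 before adjustment, and 2 control samples against 4 cannot go below 0.0667, so this is no sign of stability. Leaving out 1 library, the log2 alpha to beta difference ranged from -0.13 to -0.02 for model minus control, from -0.01016 to 0.1142 for cornus minus model and from -0.07964 to 0.02582 for cornus minus control; it turned sign without model 2 (-0.00192), cornus 2 (-0.01016), control 1 (0.01643), control 4 (0.01604) or cornus 4 (0.02582). The Hbb-bt share difference of cornus minus model ranged from -2.895 to 2.04 percentage points and was positive without model 4 (2.04) or cornus 1 (0.1925). The Hba-a2 share difference of cornus minus control ranged from -0.006284 to 0.01246 points and was negative without cornus 1 (-0.006284). Dividing by the length of 1 annotated transcript, an alternative chosen after seeing the data, left model minus control at -0.08. The Hba-a2 results are limited by depth, with 3 of its reads in all model libraries, and by the sequence it shares with Hba-a1.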
